A study of Mus musculus with 18 samples.

Results

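Fjx1 and the cadherins Fat1, Fat3, Fat4 and Dchs1 are 5 of the 55450 genes in a table of mRNA levels from P19 cells, a mouse embryonic carcinoma line. They were taken by gene symbol. Fjx1 was selected on its measured TPM, which was higher in the HM line than in the WT line, so its differences between lines are described here without a test. The cadherins were included as members of the same pathway, with earlier results of these data known. Their p-values are therefore not free of that choice. The remaining family genes, Fat2 and Dchs2, were read beside the cadherins.

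The study asked what a cancer hotspot mutation of the miRNA-processing enzyme Dicer does when it is placed in the endogenous gene, and compared 3 lines with 6 samples each. WT cells are Dicer (+/+). HetKO cells are Dicer (+/-): a pair of CRISPR guides at exon 26 truncated 1 allele, and a clonal line was kept. HM cells are Dicer (HM/-) and were made from HetKO cells by placing E1797G, in the RNase IIIb domain, on the allele that was still full length. HM therefore also carries the truncated allele. With 1 line per genotype, the genotype and the history of each line cannot be told apart. The labels do not say that the 6 samples of a line came from separate cultures, so p-values measure only the spread between these samples, which may be technical. The values are TPM, transcript abundances corrected for transcript length and scaled to the same total in every sample. Levels of different genes can therefore be compared, but read depth is unknown.

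Fat and Dachsous proteins are very large cadherins on the surface of neighbouring cells that bind each other across the cell contact. In the fly, Four-jointed is a Golgi kinase that phosphorylates their cadherin repeats and so tunes how tightly they bind, and the system orients cells within a sheet and restrains growth through the Hippo pathway. Mammals have a single Four-jointed homologue, Fjx1. Fat4 with Dchs1 is the mammalian pair closest to the fly receptor and ligand, and Fat1 and Fat3 act in actin organisation and in neuronal and muscle patterning.

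Dicer1 itself was measured at 52.3 ± 2.09 TPM in WT, 48.0 ± 4.10 TPM in HetKO and 40.3 ± 3.18 TPM in HM (mean ± SD, n = 6 per line). All 8 embryonal carcinoma markers, Pou5f1 and Sox2 among them, averaged at least 1 TPM in each line, and their summed level ranged from 2970 to 3871 TPM over the 18 samples, most of it Pou5f1. Single markers differed more between lines. Nanog averaged 46.9 TPM in WT, 86.3 TPM in HetKO and 18.8 TPM in HM, and Sall4 24.5, 46.7 and 8.85 TPM, with the lowest HM sample at 0.63 TPM. Other markers were highest in HM. Utf1 averaged 220, 148 and 381 TPM in WT, HetKO and HM, Sox2 98.6, 114 and 157 TPM, and Lin28a 282, 260 and 343 TPM. The summed level of 6 neural markers was 38.6 to 44.4 TPM in WT, 23.8 to 47.9 TPM in HetKO and 28.4 to 55.9 TPM in HM, most of it Tubb3. The summed level of 6 mesenchymal markers was 29.7 to 40.2, 14.5 to 38.2 and 27.4 to 44.5 TPM, and that of 6 endoderm markers was at most 4.28 TPM, with Ttr at 0 in all samples. Mesenchymal markers also went apart: Twist1 averaged 4.30, 4.86 and 14.3 TPM and Thy1 22.3, 19.2 and 16.4 TPM in WT, HetKO and HM. The part of these markers in the results was not tested.

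Within HetKO and HM the samples fell into pairs that were more alike than the rest. This was measured as the robust SD of log2 ratios over the 683 most abundant genes. In HetKO the alike pairs were 1 with 4, 2 with 5 and 3 with 6, at 0.0510 to 0.0696 against 0.164 to 0.358 for the 12 other comparisons of its samples. In HM they were 1 with 4, 2 with 3 and 5 with 6, at 0.0595 to 0.105 against 0.168 to 0.279. In WT the grouping was less clear. Its pairs 1 with 4, 2 with 5 and 3 with 6 were at 0.0493 to 0.0746 and the other comparisons at 0.0730 to 0.205, so the ranges met, and replicates 2, 3, 5 and 6 lay within 0.0939 of each other. HM replicates 2 and 3 also stood apart on chromosome 3 between 90 and 120 Mb, where the median of 238 genes was 0.53 above the WT mean on the log2 scale in both, against -0.18 to -0.13 in the other HM samples and 0.43 in HetKO. None of the 5 genes lies there. Results are therefore also given from the means of these pairs, as 3 samples per line, and without the pairs that carry them.

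Because Dicer makes miRNAs, short RNAs that pair with 3′ UTRs through their seed, bases 2 to 8, the seeds below are shown with the sites that match them in these mRNAs. They belong to some of the study's miRNAs, abundant ones from the 5p arm of the hairpin and passenger ones from the 3p arm. Other passenger miRNAs that the study names were not searched. Capitals mark the seed. The 5p arms of miR-17 and miR-20b share a seed, as do those of miR-15b and miR-16 and the 3p arms of miR-17 and miR-20b. Mature sequences are RefSeq's for GRCm38.p6.
miR-17-5p: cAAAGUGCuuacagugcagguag
miR-20b-5p: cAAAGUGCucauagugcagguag
miR-15b-5p: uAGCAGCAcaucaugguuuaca
miR-16-5p: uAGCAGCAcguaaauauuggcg
miR-7a-1-3p: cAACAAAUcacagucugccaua
miR-15b-3p: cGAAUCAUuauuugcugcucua
miR-17-3p: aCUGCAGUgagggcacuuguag
miR-20b-3p: aCUGCAGUgugagcacuucuag

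Each mRNA held at least 1 match of 7 bases to these seeds on its own strand, in the longest annotated 3′ UTR of GENCODE for GRCm38. In all, 7 distinct seeds were searched, and the share of other 3′ UTRs that match any of them was not computed. The windows run 5′ to 3′ along the mRNA in DNA letters, with the match in capitals.
Fjx1, miR-17-5p and miR-20b-5p, chr2:102449514-102449520, minus strand: agtttcatGCACTTTactttttt
Fat4, miR-17-5p and miR-20b-5p, chr3:39011391-39011397, plus strand: tttgttccGCACTTTaaagcttt
Fat4, miR-7a-1-3p, chr3:39011879-39011885, plus strand: ttttttacATTTGTTacttatgt
Fat3, miR-15b-5p and miR-16-5p, chr9:15912287-15912293, minus strand: catcagaaTGCTGCTtttgccaa
Fat3, miR-15b-5p and miR-16-5p, chr9:15911926-15911932, minus strand: gagtctttTGCTGCTgagcctca
Fat1, miR-15b-3p, chr8:45051703-45051709, plus strand: ttgttagcATGATTCatgtattt
Dchs1, miR-17-3p and miR-20b-3p, chr7:105753000-105753006, minus strand: cttaataaACTGCAGtttgtatc

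Fjx1 and Fat4 thus share the GCACTTT match. Among 3′ UTRs of similar length, GCACTTT occurred in 7.21% of 2842 for the 870 bases of Fjx1 and in 9.96% of 3072 for the 1143 bases of Fat4. ATTTGTT occurred in 18.1% of those compared with Fat4. TGCTGCT occurred in 52.2% of 1153 for the 4810 bases of Fat3, so that match is common at this length. ATGATTC occurred in 4.59% of 2812 for the 848 bases of Fat1, and ACTGCAG in 5.10% of 2155 for the 468 bases of Dchs1. The letters matching miR-7a-5p and miR-26a-5p were in none of these 3′ UTRs. Seeds searched without a match in Fjx1 each occurred in 4.71% to 15.2% of those compared with it. For Fat3 such seeds each occurred in 24.5% to 55.0%. Matches are letters only, and binding was not analysed here.

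Fjx1 (ENSMUSG00000075012.4), the Four-jointed homologue, was the member with the largest difference between lines. It is a gene of 1 exon at chr2:102449366-102452499 of GRCm38, minus strand, with a coding length of 1353 bases, and no other annotated gene overlaps it. In WT replicates 1 to 6 it measured 5.57, 4.89, 5.08, 5.33, 6.28 and 5.20 TPM, with a mean ± SD of 5.39 ± 0.492 (n = 6). HetKO samples measured 8.29, 16.6, 4.24, 8.49, 16.9 and 4.77 TPM, with a mean ± SD of 9.89 ± 5.61 (n = 6). HM samples measured 22.0, 21.3, 23.2, 20.7, 45.0 and 44.4 TPM, with a mean ± SD of 29.4 ± 11.8 (n = 6). Every HM sample was above every WT and HetKO sample, while HetKO samples ranged from the WT level upwards and overlapped WT. Of genes averaging at least 1 TPM, 10.6% had all HM samples above WT and 6.23% had all above HetKO. In bulk samples, more cells that express a gene and more RNA per cell cannot be told apart.

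The mean TPM of Fjx1 in HM was 5.46 times that of WT and 2.98 times that of HetKO, and the mean of HetKO was 1.83 times that of WT. On the scale of log2(TPM + 1) used for all fits, HM minus WT was 2.17 (SE, the standard error, 0.20), HM minus HetKO 1.56 (SE 0.33) and HetKO minus WT 0.61 (SE 0.28). By this difference Fjx1 ranked 7 of 14043 genes for HM minus WT, 138 of 13762 for HM minus HetKO and 335 of 13999 for HetKO minus WT. These ranks describe the choice of the gene and support nothing further.

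The spread of Fjx1 within the mutant lines followed the alike pairs. Within a pair of HetKO samples it differed by at most 0.14 on the log2 scale, and between samples of different pairs by 0.69 to 1.77. HetKO replicates 2 and 5 were the high ones, and without them HetKO minus WT was 0.17 (SE 0.17). HM replicates 5 and 6 were about 45 TPM and the other 4 HM samples 20.7 to 23.2 TPM. Without replicates 5 and 6, HM minus WT was 1.84 (SE 0.08), and without replicates 2 and 3 it was 2.32 (SE 0.21).

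**Figure D1:**
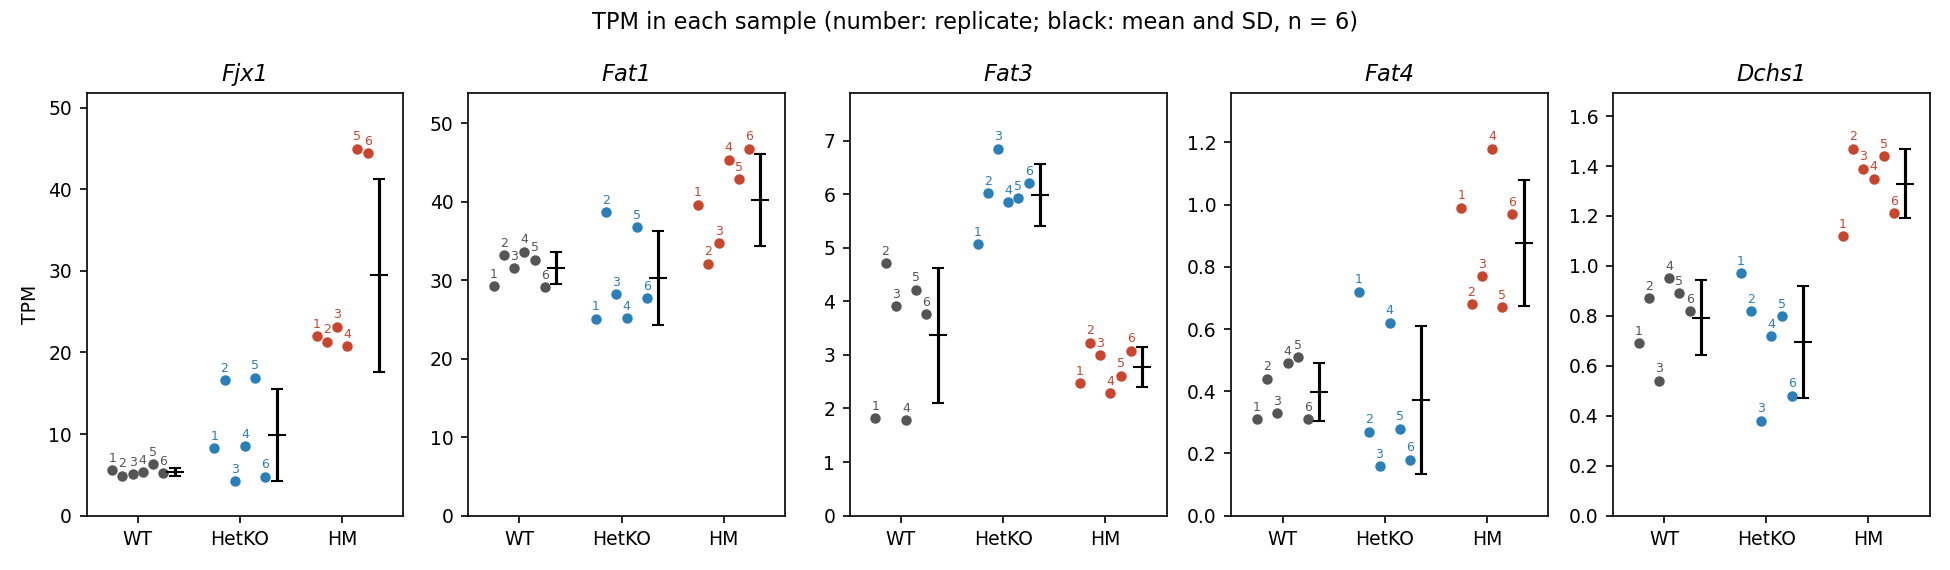
TPM of Fjx1, Fat1, Fat3, Fat4 and Dchs1 in each of the 18 samples, on a separate axis for each gene that starts at 0. Points are samples labelled by replicate number, and the black bar is the mean and SD of 6. HM samples of Fjx1, Fat4 and Dchs1 lie above all WT samples, Fat3 is highest in HetKO, and Fjx1 in HetKO splits into pairs near 4.5, 8.4 and 16.8 TPM. Among genes averaging at least 1 TPM, 10.6% have all HM samples above WT.

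Fat4 (ENSMUSG00000046743.6), the receptor nearest to fly Fat, lies at chr3:38886940-39011985, plus strand. It was the lowest of the 5 in every line and stayed under a mean of 1 TPM, the minimum set for the genes tested. In WT it measured 0.31, 0.44, 0.33, 0.49, 0.51 and 0.31 TPM in replicates 1 to 6. HetKO samples measured 0.72, 0.27, 0.16, 0.62, 0.28 and 0.18 TPM. HM gave 0.99, 0.68, 0.77, 1.18, 0.67 and 0.97 TPM. All HM samples exceeded all WT samples, and HetKO replicate 1, at 0.72 TPM, reached into the HM range. Among genes that reached the minimum, 10.6% had all HM samples above WT, and the share among lower genes was not computed.

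The mean TPM of Fat4 in HM was 2.20 times that of WT and 2.36 times that of HetKO. Over all 29312 genes with any signal, without the minimum, HM minus WT for Fat4 was 0.42 on the log2(TPM + 1) scale (SE 0.08, limma adjusted p = 0.00255). In that fit 9.55% of genes were called higher in HM. HM minus HetKO was 0.46 (SE 0.12, limma adjusted p = 0.0188), where 7.27% of genes were called higher. The two-sided exact permutation test over samples gave p = 0.00216, the smallest it can give, for HM against WT and p = 0.00649 for HM against HetKO. HetKO minus WT was -0.04 (SE 0.10, limma adjusted p = 0.826). On the means of alike pairs, neither HM difference passed, with limma adjusted p = 0.0813 against WT and 0.256 against HetKO.

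Dchs1 (ENSMUSG00000036862.15), the Dachsous ligand of Fat4, lies at chr7:105752990-105787654, minus strand. In WT it measured 0.69, 0.87, 0.54, 0.95, 0.89 and 0.82 TPM. HetKO samples measured 0.97, 0.82, 0.38, 0.72, 0.80 and 0.48 TPM. HM gave 1.12, 1.47, 1.39, 1.35, 1.44 and 1.21 TPM. No HM sample overlapped a sample of either other line, whereas HetKO and WT overlapped.

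The mean TPM of Dchs1 in HM was 1.68 times that of WT and 1.91 times that of HetKO. The log2(TPM + 1) difference was 0.38 for HM minus WT (SE 0.11, limma adjusted p = 0.0124) and 0.47 for HM minus HetKO (SE 0.13, limma adjusted p = 0.0157). Dchs1 reached the minimum of 1 TPM only in the comparisons that include HM, so its entry into these fits depended on its HM values. Without the minimum, limma adjusted p was 0.00740 against WT and 0.0115 against HetKO, where 9.55% and 7.27% of genes were called higher. The exact permutation test, which has no such minimum, gave p = 0.00216, the smallest it can give, for HM against each other line. Lines without any overlap always give this value, so it restates the separation above. It is not adjusted over genes and takes mates of an alike pair as separate samples. HetKO minus WT was -0.09 without the minimum (SE 0.10, limma adjusted p = 0.634). On pair means the HM differences of Dchs1 had limma adjusted p = 0.155 and 0.234. Called genes higher in HM made up 19.4% of those tested against WT and 14.0% against HetKO, and genes whose HM samples all lay above those of the other line made up 10.6% and 6.23%.

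Dchs2 (ENSMUSG00000102692.1), the other Dachsous gene, was lower in HM. In WT it measured 0.47, 0.77, 0.87, 0.46, 0.84 and 0.98 TPM, and in HM 0.18, 0.44, 0.37, 0.12, 0.35 and 0.32 TPM. HetKO samples measured 0.44 to 1.53 TPM. All HM samples were below all WT samples, HM and HetKO met at 0.44 TPM, and the mean TPM of WT was 2.47 times that of HM. The share of genes under the minimum that separate this way was not computed. Without the minimum, HM minus WT was -0.41 (SE 0.10, limma adjusted p = 0.00658) and HM minus HetKO was -0.54 (limma adjusted p = 0.0232). Both calls were lost on pair means (limma adjusted p = 0.128 and 0.278). Called genes lower in HM made up 16.6% and 8.68% in these fits. Fat2 was at most 0.10 TPM in any sample.

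Fat1 (ENSMUSG00000070047.14) was the highest of the 5 in every line. It is known for organising actin at cell contacts and lies at chr8:44935447-45052257, plus strand. In WT it measured 29.2, 33.2, 31.6, 33.6, 32.6 and 29.1 TPM, with a mean ± SD of 31.6 ± 1.98 (n = 6). HetKO samples measured 25.1, 38.7, 28.2, 25.2, 36.8 and 27.7 TPM, with a mean ± SD of 30.3 ± 5.93 (n = 6). HM gave 39.7, 32.1, 34.8, 45.4, 42.9 and 46.8 TPM, with a mean ± SD of 40.3 ± 5.88 (n = 6). HM replicates 2 and 3 lay in or near the WT range, so the lines overlapped.

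Fat1 was higher on average in HM, with a mean TPM 1.28 times that of WT and 1.33 times that of HetKO. Called genes higher in HM made up 19.4% of those tested against WT and 14.0% against HetKO. HM minus WT was 0.33 on the log2(TPM + 1) scale (SE 0.09, limma adjusted p = 0.00873), and the exact permutation test gave p = 0.0108. Without HM replicates 2 and 3 it was 0.46 (limma adjusted p = 0.000341), without HM replicates 5 and 6 it was 0.25 (limma adjusted p = 0.04997), and on pair means the call was lost (adjusted p = 0.0955). HM minus HetKO was 0.41 (SE 0.13, limma adjusted p = 0.0289), a call lost on pair means (adjusted p = 0.229) and without HM replicates 5 and 6 (0.33, adjusted p = 0.138). It was also lost when HM replicate 4, 5 or 6 or HetKO replicate 1, 3, 4 or 6 alone was left out, at 0.36 to 0.39 with limma adjusted p = 0.0575 to 0.0656. HetKO minus WT was -0.08 (SE 0.11, limma adjusted p = 0.673). HetKO replicates 2 and 5, high for Fjx1, were also the high ones for Fat1, and without them HetKO minus WT was -0.24 (limma adjusted p = 0.0430).

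Fat3 (ENSMUSG00000074505.5) was highest in HetKO. It is known for shaping neurons of the retina and lies at chr9:15910189-16501285, minus strand. In WT it measured 1.82, 4.71, 3.91, 1.78, 4.22 and 3.76 TPM, with a mean ± SD of 3.37 ± 1.26 (n = 6). HetKO samples measured 5.06, 6.02, 6.85, 5.85, 5.93 and 6.21 TPM, with a mean ± SD of 5.99 ± 0.579 (n = 6). HM gave 2.47, 3.23, 2.99, 2.29, 2.61 and 3.08 TPM, with a mean ± SD of 2.78 ± 0.375 (n = 6). HetKO overlapped neither other line, and HM lay within the WT range, between its low pair, replicates 1 and 4, and the other 4 samples.

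The mean TPM of Fat3 in HetKO was 2.15 times that of HM. HM minus HetKO was -0.89 on the log2(TPM + 1) scale (SE 0.10, limma adjusted p = 5.49e-05), a call that held on pair means (adjusted p = 0.0447) but not on pair means without the minimum (adjusted p = 0.126). Called genes lower in HM made up 20.6% of those tested in this comparison, and 9.27% had all HM samples below HetKO. HetKO minus WT was 0.73 (SE 0.18, limma adjusted p = 0.0263), where 3.71% of genes tested were called higher and 3.07% had all HetKO samples above WT. The exact permutation test gave p = 0.00216 for both, the value that lines without any overlap always give. The rise in HetKO over WT was lost on pair means (limma adjusted p = 0.413) and without HetKO replicates 2 and 5 (0.73, adjusted p = 0.0725), and without HetKO replicate 2 alone it was 0.73 (adjusted p = 0.05001). Without WT replicates 1 and 4 it was 0.44 (limma adjusted p = 0.0247).

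HM minus WT for Fat3 was -0.16 (SE 0.19, limma adjusted p = 0.509). It turned to 0.09 after quantile normalization and 0.02 with each sample centred on its median, and without WT replicates 1 and 4 it was -0.45 (limma adjusted p = 0.00573). The 3 comparisons share samples, so their values for a gene are not independent of each other. Between HM and WT 51.4% of the 14043 genes tested passed in either direction, between HetKO and WT 10.2% of 13999, and between HM and HetKO 34.6% of 13762.

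**Figure D2:**
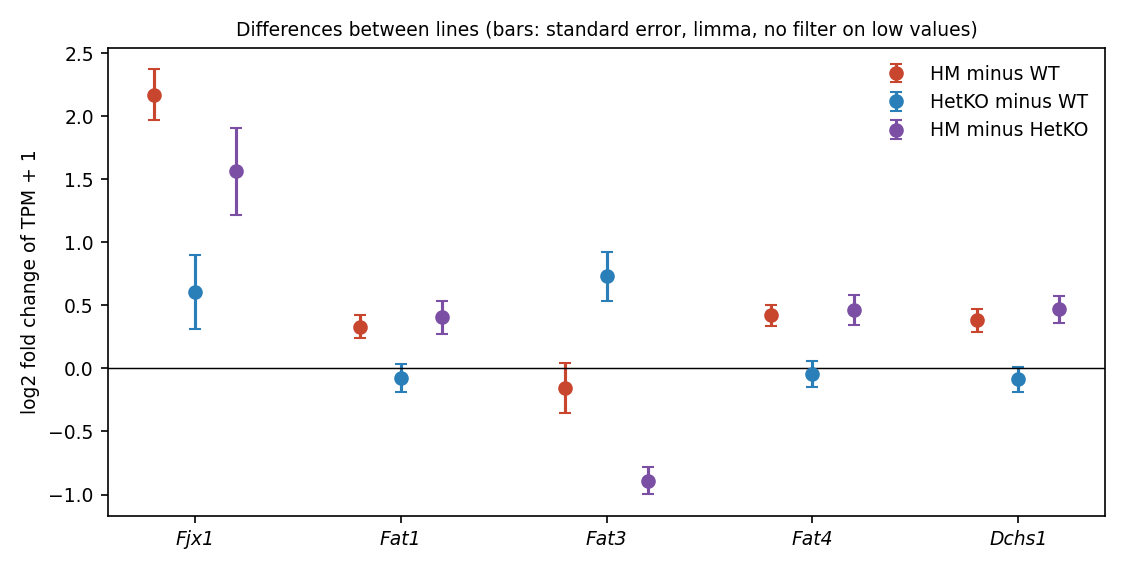
Difference between lines in log2(TPM + 1) for each gene, from limma without the minimum of 1 TPM. Points are the 3 comparisons and bars their SEs. HM minus WT runs from -0.16 for Fat3 to 2.17 for Fjx1, and Fat3 is the gene whose HetKO minus WT point lies above and HM minus HetKO point below 0.

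By level, the order in WT was Fat1, Fjx1, Fat3, Dchs1 and Fat4, and no neighbouring genes in this order overlapped over the 6 samples. In HetKO the order of the means was the same, but the 4.24 to 16.9 TPM of Fjx1 enclosed the 5.06 to 6.85 TPM of Fat3, and Dchs1 and Fat4 overlapped. In HM the order was again the same. There Fjx1, at 20.7 to 45.0 TPM, overlapped Fat1, at 32.1 to 46.8 TPM, and Dchs1 and Fat4 overlapped too.

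The annotation places antisense genes within Fat1 (Gm2366) and Fat4 (C230034O21Rik and Gm43539), a provisional model in Fat3 (Gm48726) and a pseudogene on the other strand of Dchs1 (Gm15645). The library kit keeps strand, but the setting used for counting is not given in the sources used here, so reads of these overlaps cannot be assigned.

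Genes that work with Fat and Dachsous were read from 5 lists. Of 16 effectors and binding partners, 2 rose and 6 fell in HM against WT, with a median log2 difference of -0.19 beside -0.09 over all genes tested, 19.4% of which were called higher and 32.0% lower. Amotl1, an angiomotin that binds Yap, fell from 11.3 ± 1.59 TPM in WT to 5.11 ± 1.35 TPM in HM (SD, n = 6), a log2 difference of -1.02 (limma adjusted p = 0.000130). It measured 8.58 to 13.5 TPM over WT samples and 3.64 to 6.83 TPM over HM samples. Mpdz, a scaffold with many PDZ domains, fell from 39.0 to 22.3 TPM (-0.78, limma adjusted p = 0.000396). Vasp, an actin regulator of the family that Fat1 recruits, rose from 55.4 to 66.3 TPM over WT samples to 76.3 to 85.9 TPM over HM samples (0.41, limma adjusted p = 8.48e-05). The lower count depended on scaling and samples. It was 3 after quantile normalization, 2 with centred samples, 2 on pair means and 3 without HM replicates 5 and 6. All genes tested gave 3479, 2879 and 2232 lower of 14043 in these fits, and 3853 of 14088 without HM replicates 5 and 6.

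In HetKO against WT, where 3.71% of genes tested were called higher and 6.44% lower, 1 effector rose and 2 fell. Lix1l and Lix1 are the homologues of fly Lowfat, which binds Fat and Dachsous. Lix1l rose from 11.2 to 20.9 TPM (0.82, limma adjusted p = 0.00151) and Lix1 fell from 2.58 to 1.22 TPM (-0.68, limma adjusted p = 0.00471). Lix1l begins at 96601149 on chromosome 3, inside the shifted stretch described above. In HM it was 16.7 and 14.4 TPM in replicates 2 and 3 and 3.66 to 6.61 TPM in the other 4. The part of that stretch in its rise was not tested.

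The core planar polarity genes, a parallel system that also orients cells in a sheet, showed 0 higher and 8 lower of 15 in HM against WT by limma, with a median of -0.26. Over all genes tested 19.4% were higher and 32.0% lower, with a median of -0.09. None of the 15 passed in the higher direction after either rescaling. The number lower was 4 after quantile normalization, 2 with centred samples and 1 on pair means. All genes tested gave 3479, 2879 and 2232 lower of 14043 in these fits. Fzd6, a Frizzled receptor, went from 9.13 to 5.18 TPM (-0.68, limma adjusted p = 0.0214, lost under both rescalings). Ankrd6, the Diversin homologue, went from 10.6 to 13.2 TPM over WT samples to 7.59 to 9.29 TPM over HM samples (-0.53, limma adjusted p = 9.96e-05), and Celsr3, a cadherin with a receptor core, from 7.63 to 5.06 TPM (-0.50, limma adjusted p = 0.00862, lost after quantile normalization). In HetKO against WT 1 of the 15 rose and 1 fell, beside 3.71% of all genes tested called higher and 6.44% lower. Prickle1, a cytoplasmic core protein, fell from 30.7 to 13.3 TPM (-1.21, limma adjusted p = 0.00113). Celsr2 rose from 11.4 to 18.7 TPM (0.66, limma adjusted p = 0.00932), and it begins at 108390851 on chromosome 3, in the same shifted stretch.

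Fjx1 belongs to the kinases of the secretory pathway. Of 10 others listed, 7 were tested, and in HM against WT 2 rose and 4 fell, with a median of -0.31, beside 19.4% and 32.0% of all genes tested. The number lower was 2 after quantile normalization, with centred samples and on pair means. All genes tested gave 3479, 2879 and 2232 lower of 14043 in these fits. Fam198b, a Golgi-associated kinase, fell from 4.58 to 1.86 TPM (-0.96, limma adjusted p = 0.000587). Fam69b rose from 2.03 to 4.33 TPM (0.82, limma adjusted p = 0.00145). Pkdcc, a secreted tyrosine kinase, rose from 19.8 to 30.2 TPM (0.60, limma adjusted p = 0.0172), a call lost without WT replicates 1 and 4 (0.35, adjusted p = 0.0776) and without HM replicates 2 and 3 (0.42, adjusted p = 0.0876). None of the 7 passed in HetKO against WT, where 10.2% of all genes tested passed in either direction.

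Of 17 classical cadherins and delta-protocadherins, 11 were tested in HM against WT, where 3 rose and 1 fell, with a median of 0.17, beside 19.4% higher, 32.0% lower and a median of -0.09 over all genes tested. Pcdh11x, which rose, averaged 0.83 TPM in WT and 1.44 TPM in HM, so it was tested only through HM. Cdh4, which was not called, entered the same way, at 0.78 and 5.06 TPM. Without the minimum 5 of 17 rose and 1 fell, where 9.55% of genes were called higher and 16.6% lower. Pcdh18 rose from 3.47 to 9.32 TPM (1.23, limma adjusted p = 5.74e-05) and Cdh8 from 4.49 to 11.7 TPM (1.18, limma adjusted p = 3.46e-05). Both were without overlap, and 10.6% of all genes tested had all HM samples above WT. Cdh3, which is P-cadherin, fell from 27.5 to 8.40 TPM (-1.74, limma adjusted p = 0.000823) with overlapping samples. The list median depended on samples and scaling. It was -0.08 without HM replicates 5 and 6, as over all genes in that fit, and 0.32 after quantile normalization, beside 0.02 over all genes. On pair means 2 rose and 1 fell, beside 1182 and 2232 of all 14043 genes tested. In HetKO against WT 1 of 8 tested fell and none rose, beside 6.44% of all genes tested called lower and 3.71% higher. The gene of this list that fell was Cdh1, the epithelial E-cadherin, from 72.0 to 30.3 TPM (-1.26, limma adjusted p = 0.00350).

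Of 20 Hippo pathway genes, 19 were tested, and 3 rose and 3 fell in HM against WT, with a median of -0.09, equal to that of all genes tested, of which 19.4% were called higher and 32.0% lower. The 2 upstream kinases went apart: Stk3 fell from 13.8 to 6.94 TPM (-0.90, limma adjusted p = 6.55e-05) and Stk4 rose from 33.7 to 38.8 TPM over WT samples to 45.5 to 50.3 TPM over HM samples (0.42, limma adjusted p = 5.66e-05). Wwtr1, the coactivator TAZ, fell from 33.5 to 20.6 TPM (-0.72, limma adjusted p = 0.00563). After quantile normalization 6 rose and 3 fell, beside 3632 higher and 3479 lower of all 14043 genes tested. In HetKO against WT none rose and 4 fell, beside 3.71% of all genes tested called higher and 6.44% lower. Those that fell included the transcription factor Tead4, from 4.51 to 1.45 TPM (-1.24, limma adjusted p = 0.00262), and Ccn1, a gene that Yap activates, from 12.2 to 6.52 TPM (-0.79, limma adjusted p = 0.00487). On pair means none of the 5 lists held a call in HetKO against WT, where 35 of all 13999 genes tested were called.

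**Figure D3:**
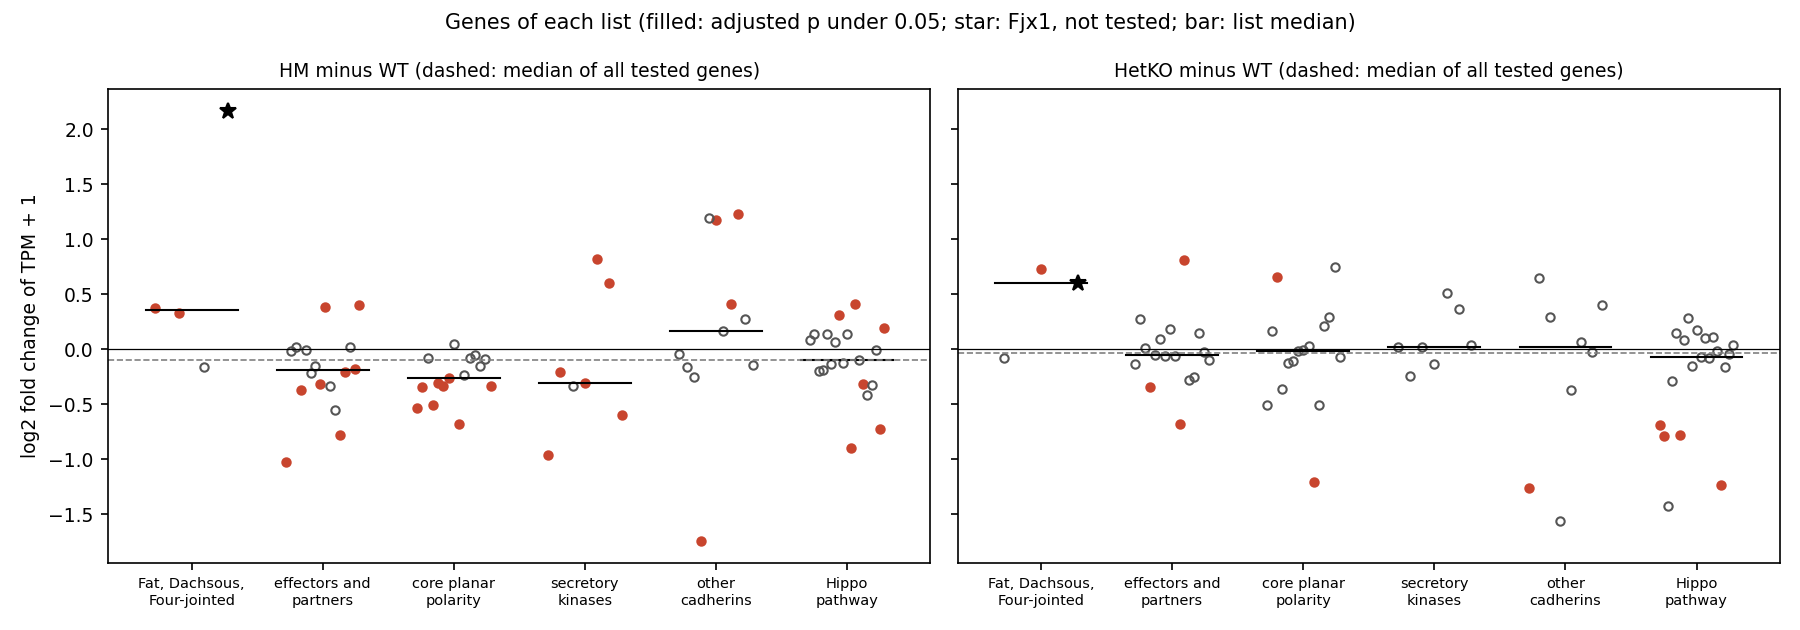
Difference in log2(TPM + 1) for the tested genes of each list, HM minus WT on the left and HetKO minus WT on the right. Filled points passed, open points did not, the star is Fjx1 (not tested), the short bar is the list median and the dashed line the median of all genes tested (-0.09 and -0.03). The planar polarity genes that passed in HM, 8 of 15, all lie below 0, and 4 passed after quantile normalization and 2 with centred samples. Of all 14043 genes tested, 4498 were called lower in the fit shown and 3479 and 2879 after these rescalings.

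The neighbours of each gene were read to see whether a stretch of chromosome differed with it. Of 15 coding genes within 1 Mb of Fjx1, 9 were tested in HM against WT, with a median of 0.10, and 1 rose and 1 fell, where 19.4% of all genes tested were called higher and 32.0% lower. The one that rose was Trim44, the nearest tested gene, named after its values were seen. It encodes a tripartite motif protein, and its start is 44.7 kb from that of Fjx1. In WT it measured 40.9, 22.6, 22.7, 47.1, 23.4 and 21.2 TPM, in HetKO 14.7 to 16.8 TPM and in HM 47.6 to 58.2 TPM. HM lay above all WT samples, a separation found in 10.6% of genes tested. HetKO lay below them, and the share of genes placed so is not given here. HM minus WT was 0.91 (limma adjusted p = 0.00132) and HetKO minus WT -0.81 (limma adjusted p = 0.0147, 0.335 on pair means), whereas Fjx1 was 0.61 above WT in HetKO.

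Around Fat1, 8 of 15 coding genes were tested in HM against WT. All 8 were below 0 with a median of -0.52, and 4 fell, while Fat1 itself rose. The shares over all genes given for the neighbours of Fjx1 apply here too. Around Fat3, 2 of 7 tested rose and 3 fell, with a median of 0.12. The single coding neighbour of Fat4 fell by 0.43. Around Dchs1, 12 of 52 were tested, of which 2 rose and 5 fell, with a median of -0.04.

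**Figure D4:**
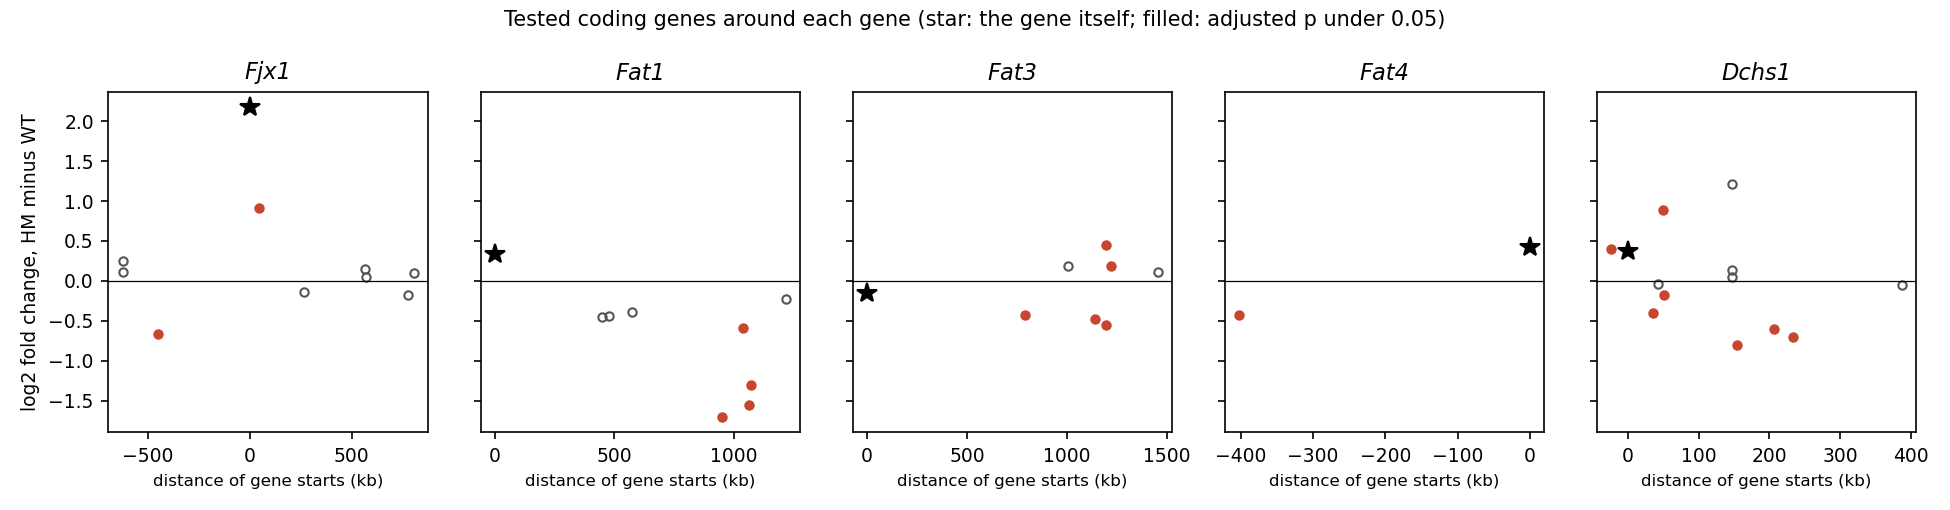
HM minus WT in log2(TPM + 1) for the tested coding genes within 1 Mb of each gene, against the distance between gene starts in kb along the strand of the gene. The star is the gene itself and filled points passed. Fjx1 at 2.17 stands above its 9 tested neighbours, the highest of which, Trim44, is at 0.91. Fjx1 was picked for its rise in HM, so its height here describes that choice.

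The genes most like each member over the 18 samples were found among 11936 genes by the root mean square difference of log2(TPM + 1) after each gene was centred on its own mean. These values describe likeness and carry no test, and samples of a line share that line. For Fjx1, whose own SD was 1.04 on that scale, the nearest was Ina, a neuronal intermediate filament, at 0.29. It averaged 6.80 TPM in WT, 10.4 in HetKO and 23.9 in HM. Next was Mat2a, which makes the methyl donor S-adenosylmethionine, at 0.30, with 78.6, 112 and 267 TPM. Slc35d3, Vrtn and the immediate early gene Egr1 followed at 0.35, 0.37 and 0.38. All 5 were, like Fjx1, higher in HetKO replicates 2 and 5 than in the other HetKO samples. Those samples entered the choice of the 5 genes, so this describes the choice and supports nothing further. Mat2a measured 211 and 189 TPM there against 67.1 to 69.9 TPM in the other 4.

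The nearest to Fat1 were Ube2k, a ubiquitin-conjugating enzyme, at 0.08 and Fam83h at 0.09, beside an SD of 0.26 for Fat1 itself. Those nearest to Fat3 were Tenm4, a teneurin, and Zfp12, both at 0.22 beside an SD of 0.47. Basp1 and Camsap2 were nearest to Fat4, at 0.09 and 0.12 beside 0.26. Frmd8 and Vasp were nearest to Dchs1, both at 0.11 beside 0.24. Tenm4 averaged 4.47, 7.26 and 2.99 TPM in WT, HetKO and HM, the same order as Fat3.

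**Figure D5:**
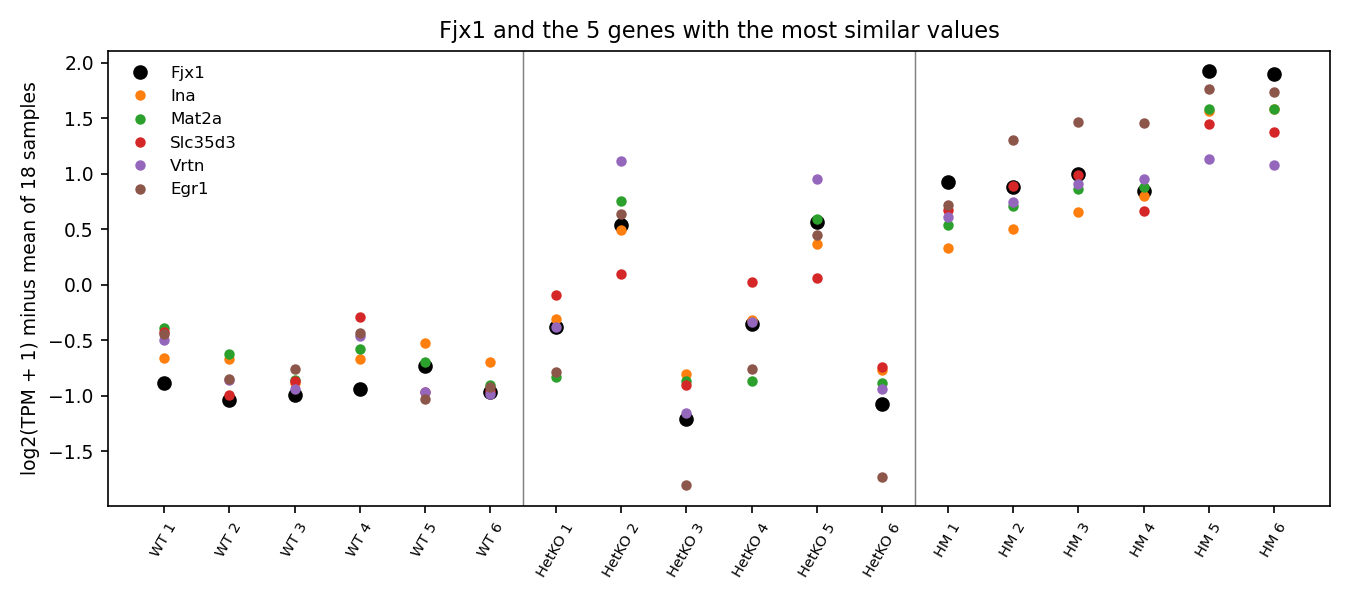
log2(TPM + 1) minus the mean of all 18 samples for Fjx1 and the 5 genes nearest to it, by sample. Within HetKO all 6 genes are highest in replicates 2 and 5, and Fjx1 reaches its top values in HM replicates 5 and 6. The 5 genes were picked for likeness over these same samples.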

How the data were processed

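Poly(A) RNA was extracted with TRIzol, made into stranded libraries and sequenced as read pairs. The paper states that the authors merged pairs with BBMerge and quantified genes with RSEM; the submitters' processing notes name cutadapt, STAR and mm10. The authors deposited TPM, rounded, for 55450 genes and 18 samples. Every sample has the same total, so TPM keeps no depth, and precision was taken from the spread between samples. All gene identifiers matched GENCODE of GRCm38.

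Within each comparison of 12 samples, genes averaging 1 TPM or more entered limma 3.58.1 (R 4.3.3) as log2(TPM + 1), with a variance trend and Benjamini-Hochberg adjustment over all genes tested (threshold 0.05). Fold changes on this scale understate those of low genes. Single values were also tested by two-sided exact permutation, without adjustment over genes. Python 3.11.15 and pandas 2.3.3 were used for the rest. The fit was tested on simulated data. The members and lists were chosen with earlier results of these data known. From each list the 3 largest changes called in HM and the 2 largest called in HetKO, against WT, were named; likeness was ranked over all 18 samples, with 5 genes named for Fjx1 and 2 for each cadherin. Fat4 and, in 1 comparison, Dchs1 fell under the minimum, so the fit without it was used there.

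Groups and replicate numbers came from the sample titles and genotypes. Alternatives were a pseudocount of 0.1, a minimum of 5 TPM or none, quantile normalization, centring, a joint fit of all lines, an unequal-variance test, the replicate number as a block, pair means, 6-base seed matches and leaving out samples. Leaving out HM 5 and 6 or WT 1 and 4, the permutation tests and pair means or block without a minimum were chosen after seeing the data.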

Additional observations from a re-analysis of the deposited data

How the results depend on the processing

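TPM carries no depth, so no value under about 1 TPM could be given a counting error, and Fat4 and Dchs1 rest on such values. The number of genes called between HM and WT was 3414 on pair means and 6541 to 7361 with 1 sample left out. Between HetKO and WT it was 852 by the unequal-variance test, 35 on pair means and 959 to 1518 with 1 sample left out. Between HM and HetKO it was 454 on pair means, 2785 without HM replicates 5 and 6 and 3655 to 5213 with 1 sample left out. Of the calls between HM and WT 37.7% were higher in HM, 51.1% after quantile normalization and 61% with centred samples, which moved the median of all genes from -0.09 to 0.02 and 0.08. The same shares were 36.5%, 48.1% and 50.7% for HetKO against WT and 40.4%, 49.3% and 60.9% for HM against HetKO. Over the alternatives run, the Fjx1 difference ranged over 1.84 to 2.35 for HM minus WT, 0.17 to 0.79 for HetKO minus WT and 1.23 to 2.00 for HM minus HetKO.

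On pair means Fat1 (0.33, limma adjusted p = 0.0955) and Dchs1 (0.38, adjusted p = 0.155) between HM and WT did not pass. Fat3 between HM and WT turned to 0.087 (limma adjusted p = 0.724) after quantile normalization and 0.021 (0.929) when centred, and was -0.45 (0.00573) without WT replicates 1 and 4. Fat1 between HetKO and WT was -0.24 (0.0430) without HetKO replicates 2 and 5. Fat3 between HetKO and WT was 0.73 under each of the alternatives that ended its call: no minimum (limma adjusted p = 0.0507), unequal variance (0.0933), pair means (0.413), HetKO replicates 2 and 5 left out (0.0725) and HetKO replicate 2 left out (0.05001), and with 1 sample left out it ranged over 0.61 to 0.82. Fat1 between HM and HetKO stayed at 0.41 but did not pass with no minimum (limma adjusted p = 0.0529), unequal variance (0.0530) or pair means (0.229), was 0.33 (0.138) without HM replicates 5 and 6, and with 1 sample left out ranged over 0.36 to 0.48, passing in 5 of 12. Dchs1 between HM and HetKO was 0.47 (0.234) on pair means and 0.41 to 0.51 in the 7 fits with 1 sample left out that it entered. Fat3 between HM and HetKO passed under 24 alternatives, but not on pair means without the minimum (adjusted p = 0.126). The cause of these losses was not tested. Matches to the 6-base seed core numbered 4 in Fjx1, 7 in Fat1, 12 in Fat3, 5 in Fat4 and 2 in Dchs1.

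Equal replicate numbers did not mark paired samples: their deviations from the line means correlated on average at 0.0034 for HM with WT, 0.0623 for HetKO with WT and 0.0194 for HM with HetKO. With the replicate block, HM minus HetKO of Fat1 was 0.41 (limma adjusted p = 0.0643) and of Dchs1 0.47 (0.0510), neither past the threshold, and the block ended no other call of the 5 genes.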
